A study of Saccharomyces cerevisiae with 16 samples.

Results

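The genes described here encode the enzymes that make leucine, isoleucine and valine in budding yeast. They are grouped by their known place in the pathway, a rule that uses no value of these arrays, although the pathway was picked for description with earlier results of the data known: ILV1 (YER086W), ILV2 (YMR108W), ILV6 (YCL009C), ILV5 (YLR355C), ILV3 (YJR016C), LEU4 (YNL104C), LEU9 (YOR108W), LEU1 (YGL009C), BAT1 (YHR208W) and BAT2 (YJR148W). All 10 were in the deposited table of 6074 genes, and 9 of them were among the 5147 genes tested in every comparison. LEU1 had no value on the H3K4A arrays, so it was tested only between groups that measured it.

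Expression was measured on 16 spotted arrays of Saccharomyces cerevisiae open reading frames, 4 independent biological replicates for each of 4 mutants, every array carrying a mutant and a paired wild-type culture in different dyes. The mutants were set1htz1sir2, which lacks the histone H3 lysine methyltransferase Set1, the histone H2A variant Htz1 and the deacetylase Sir2; set1htz1, which lacks Set1 and Htz1; H3K4A, whose histone H3 carries alanine in place of the lysine that Set1 methylates; and set1, which lacks Set1 alone. All cultures, wild type included, grew at 30 °C in rich medium supplemented with tryptophan and adenine and harvested in log phase at an OD600 of 0.7, so every group had branched-chain amino acids in its medium. Wild-type expression was available only as the denominator of these ratios. The sources used here name neither its strain background nor the marker genes of any strain, and the deposited description gives labelled mRNA for 3 of the mutants but total RNA for H3K4A, where the labels give polyA RNA throughout, so that H3K4A set against any other mutant may differ in RNA input as well as genotype.

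Isoleucine and valine are built by parallel reactions on the same mitochondrial enzymes, and leucine branches off from the keto acid that precedes valine. The leucine branch supplies isopropylmalate, the ligand that turns the transcription factor Leu3 from a repressor into an activator of pathway genes, and leucine inhibits isopropylmalate synthase as end product. Many genes of amino acid synthesis, this pathway included, are also activated by Gcn4 when amino acids are scarce, and the transaminases that close the pathway also start the breakdown of the same amino acids.

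In set1htz1sir2, 6 of the 9 tested pathway genes rose relative to wild type and 1, BAT2, fell. In set1htz1, 4 rose and BAT2 again fell. In H3K4A none was called, and in set1 1 rose and 1 fell. A call means a Benjamini-Hochberg adjusted p under 0.05 over all 5147 genes in limma's moderated test. Of all genes tested, 24.1% were called higher and 26.3% lower in set1htz1sir2, 21.2% higher and 26.3% lower in set1htz1, 3.59% higher and 0.602% lower in H3K4A, and 9.05% higher and 9.79% lower in set1. The median log2 change of the 9 genes was 0.66 in set1htz1sir2, 0.29 in set1htz1, 0.05 in H3K4A and -0.04 in set1, where the median over all genes was -0.03, -0.04, -0.02 and -0.02 in the same order. The plot by array shows the single measurements behind these counts.

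**Figure D1:**
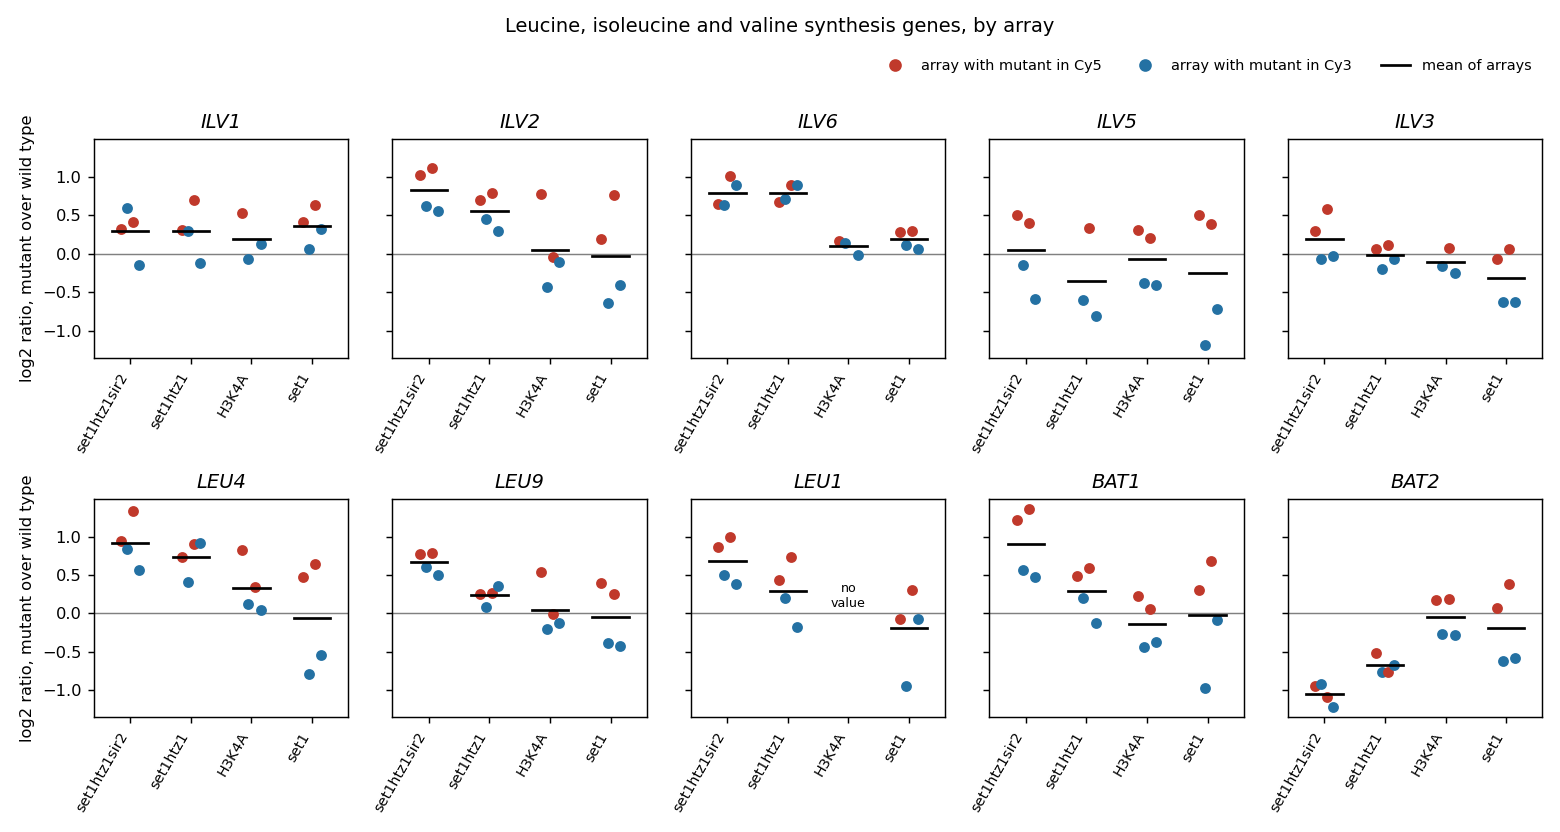
Log2 ratio of mutant over wild type for each of the 10 genes (vertical axis) in set1htz1sir2, set1htz1, H3K4A and set1; each point is 1 array, coloured by the dye that carried the mutant, and the bar is the mean of the arrays. The 4 BAT2 points of set1htz1sir2 lie between -1.22 and -0.92 and those of ILV6 between 0.64 and 1.01, while most genes in set1 have points on both sides of 0.

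ILV1 encodes threonine deaminase, which commits threonine to isoleucine and is inhibited by that product. Its log2 ratio to wild type was 0.33, 0.60, 0.41 and -0.15 on the 4 set1htz1sir2 arrays, 0.31, 0.30, 0.70 and -0.12 on the set1htz1 arrays, and 0.41, 0.07, 0.63 and 0.32 on the set1 arrays. H3K4A had 3 values, 0.53, -0.07 and 0.13. The groups overlapped throughout, and ILV1 differed little among the mutants. It was called higher in set1htz1sir2 (0.30 ± 0.12 on the log2 scale, ± being the standard error of the fit, adjusted p = 0.041), in set1htz1 (0.30 ± 0.12, adjusted p = 0.043) and in set1 (0.36 ± 0.12, adjusted p = 0.039). These calls were the nearest to the threshold among those against wild type, and each of them was lost under some of the alternatives.

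ILV2 and ILV6 encode the catalytic and the regulatory subunit of acetolactate synthase, the first enzyme that isoleucine and valine synthesis share. ILV2 gave log2 ratios of 1.02, 0.62, 1.12 and 0.56 in set1htz1sir2, 0.70, 0.45, 0.79 and 0.30 in set1htz1, 0.78, -0.43, -0.04 and -0.11 in H3K4A, and 0.19, -0.64, 0.76 and -0.40 in set1. All 8 arrays of the mutants without Htz1 were above 0, while H3K4A and set1 each had arrays on both sides of it. ILV2 rose 1.78-fold in set1htz1sir2 (0.83 ± 0.13, adjusted p = 2.7e-05) and 1.47-fold in set1htz1 (0.56 ± 0.13, adjusted p = 0.0013). In H3K4A (0.05 ± 0.13) and set1 (-0.02 ± 0.13) the mean lay within its standard error of 0.

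ILV6 separated the mutants without Htz1 from H3K4A and set1 on every array that measured it. Its log2 ratios were 0.65, 0.64, 1.01 and 0.89 in set1htz1sir2, 0.68, 0.71, 0.90 and 0.89 in set1htz1, 0.17, 0.14 and -0.02 on the 3 H3K4A arrays that measured it, and 0.29, 0.12, 0.30 and 0.06 in set1. The 8 arrays without Htz1 did not overlap with the 7 others. The subunit rose 1.74-fold in both set1htz1sir2 (0.80 ± 0.09, adjusted p = 8.5e-07) and set1htz1 (0.80 ± 0.09, adjusted p = 1.2e-06). The difference between these mutants was 0.00, with a 95% interval of -0.26 to 0.26. In H3K4A the change was 0.11 ± 0.10 (adjusted p = 0.66) and in set1 0.19 ± 0.09 (adjusted p = 0.14), neither called.

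Unlike ILV2 and ILV6, the genes of the shared enzymes further down were called in neither set1htz1sir2 nor set1htz1. Differences between these genes were not tested. ILV5, which encodes the reductoisomerase, also a protein of the mitochondrial nucleoid, was called in no mutant. Its log2 ratios ran from -0.58 to 0.51 in set1htz1sir2, from -0.81 to 0.34 on 3 set1htz1 arrays, from -0.40 to 0.31 in H3K4A and from -1.18 to 0.51 in set1. Every group of ILV5 values spanned 0, and within each group the arrays with the mutant in Cy5 were the high ones. In set1htz1sir2 the 95% interval of its change reached from -0.20 to 0.29, which does not hold the size of the ILV2 change. ILV3, the dihydroxyacid dehydratase, had ratios of -0.06, -0.62, 0.07 and -0.62 in set1 and fell there by 0.31 on the log2 scale (± 0.09, adjusted p = 0.018). The mean of ILV3 in set1 was 0.01 with the mutant in Cy5 and -0.62 with it in Cy3. Its changes in set1htz1sir2 (0.20 ± 0.09, adjusted p = 0.064), set1htz1 (-0.02 ± 0.09) and H3K4A (-0.04 ± 0.10) were not called. The 95% interval of ILV3 in set1htz1sir2 was 0.02 to 0.38. Between set1htz1 and set1, ILV3 differed by 0.29 (95% interval 0.03 to 0.54), which was not called (adjusted p = 0.11). With all set1 calls counted, 2 of the 9 pathway genes were called in set1, but 0 were without set1 replicate 1 and 0 without set1 replicate 4.

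**Figure D2:**
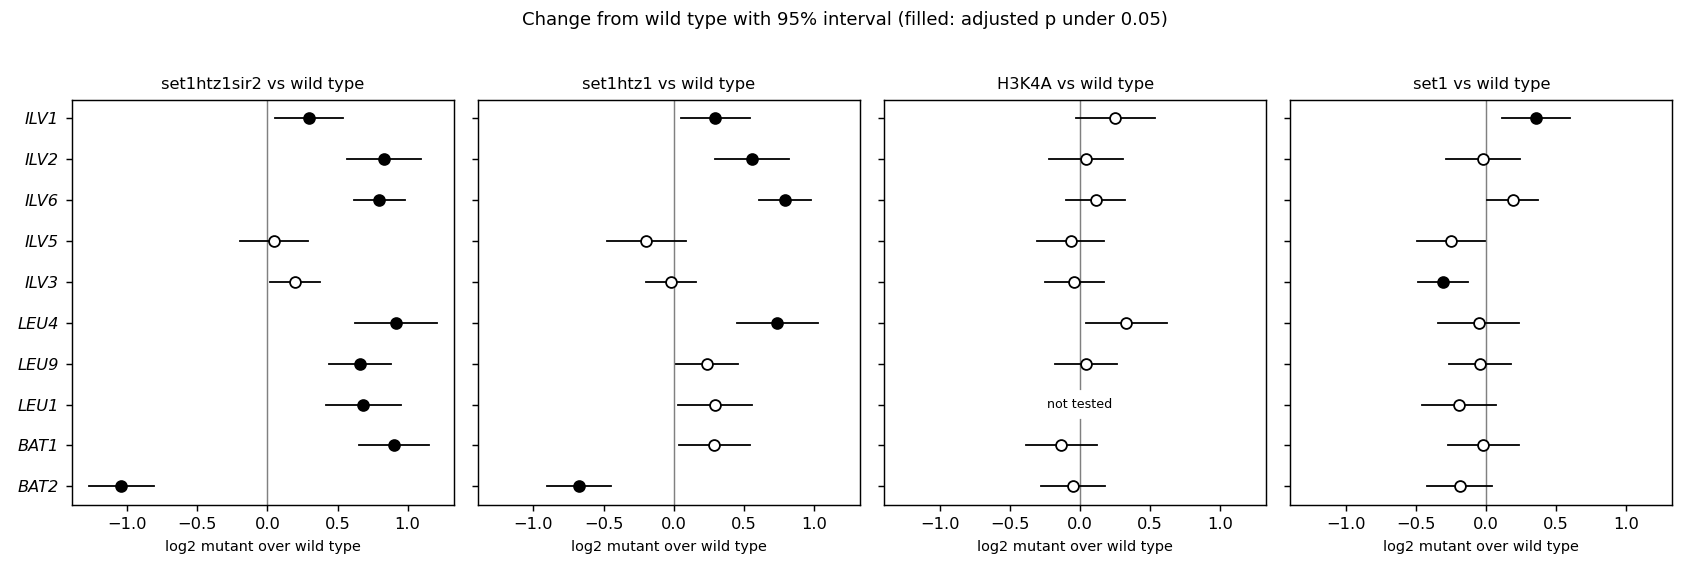
Fitted log2 change from wild type (horizontal axis) for the 10 genes in set1htz1sir2, set1htz1, H3K4A and set1, with 95% intervals; filled points passed an adjusted p of 0.05. Filled points above 0 are most numerous in set1htz1sir2, BAT2 is the 1 filled point below 0 in set1htz1sir2 and in set1htz1, and H3K4A has none.

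LEU4 and LEU9 are paralogues for isopropylmalate synthase, the entry to the leucine branch, with LEU4 the source of most of the activity. LEU4 had log2 ratios of 0.94, 0.84, 1.33 and 0.56 in set1htz1sir2, 0.73, 0.41, 0.90 and 0.92 in set1htz1, 0.83, 0.12, 0.34 and 0.04 in H3K4A, and 0.48, -0.79, 0.64 and -0.54 in set1. Every array of set1htz1sir2, set1htz1 and H3K4A was above 0, whereas set1 had arrays well above and well below it. LEU4 rose 1.89-fold in set1htz1sir2 (0.92 ± 0.14, adjusted p = 2.4e-05) and 1.67-fold in set1htz1 (0.74 ± 0.14, adjusted p = 0.00026), and was the pathway gene with the largest positive change in set1htz1sir2, at rank 220 from the top of 5147 genes. In H3K4A its 0.33 ± 0.14 was not called (adjusted p = 0.23).

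LEU9 gave 0.77, 0.60, 0.78 and 0.50 in set1htz1sir2, 0.25, 0.08, 0.26 and 0.36 in set1htz1, 0.53, -0.21, -0.01 and -0.12 in H3K4A, and 0.39, -0.38, 0.25 and -0.42 in set1. The set1htz1sir2 arrays lay wholly above those of set1htz1. LEU9 rose in set1htz1sir2 (0.66 ± 0.11, adjusted p = 4.3e-05), while its 0.24 ± 0.11 in set1htz1 was not called (adjusted p = 0.071). Between the paralogues, the change of LEU4 exceeded that of LEU9 by 0.50 ± 0.13 on the log2 scale in set1htz1 (SD over 4 arrays). All 4 of these arrays lay between 0.33 and 0.64. The excess was 0.26 ± 0.21 in set1htz1sir2, 0.29 ± 0.08 in H3K4A (from 0.17 to 0.35) and -0.01 ± 0.34 in set1. These are differences of ratios and not of levels, and whether probes of one paralogue also bind the other's cDNA was not tested, because the sources used here give no probe sequences.

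LEU1 encodes isopropylmalate isomerase, the enzyme after isopropylmalate synthase. Its ratios were 0.86, 0.50, 1.0 and 0.38 in set1htz1sir2, 0.44, 0.20, 0.73 and -0.18 in set1htz1, and -0.07, -0.94, 0.31 and -0.07 in set1. All set1htz1sir2 arrays were above the highest set1 array. In tests over the genes measured in the groups compared, LEU1 rose in set1htz1sir2 (0.69 ± 0.12, adjusted p = 0.00031), and was not called in set1htz1 (0.30 ± 0.12, adjusted p = 0.062) or set1 (-0.19 ± 0.12, adjusted p = 0.32). LEU2, which encodes the dehydrogenase of the next step and often serves as a selectable marker, was measured only in set1htz1 (0.10 ± 0.17, SD) and H3K4A (-0.14 ± 0.03, SD), and neither was called.

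In set1htz1sir2 the transaminases were called in opposite directions. BAT1 encodes the mitochondrial branched-chain aminotransferase, which serves synthesis in growing cells, and BAT2 the cytosolic one, which is linked to breakdown and to the use of branched-chain amino acids as a nitrogen source. BAT1 had log2 ratios of 1.21, 0.56, 1.36 and 0.48 in set1htz1sir2, 0.49, 0.20, 0.59 and -0.12 in set1htz1, 0.23, -0.44, 0.06 and -0.38 in H3K4A, and 0.31, -0.97, 0.68 and -0.09 in set1. BAT2 had -0.94, -0.92, -1.09 and -1.22 in set1htz1sir2, -0.51, -0.76, -0.76 and -0.67 in set1htz1, 0.17, -0.26, 0.19 and -0.29 in H3K4A, and 0.07, -0.62, 0.38 and -0.58 in set1. For BAT2 the 4 arrays of set1htz1sir2 lay wholly below those of set1htz1, and both lay below every H3K4A array, while the lower set1 arrays overlapped with set1htz1.

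BAT1 rose 1.87-fold in set1htz1sir2 (0.90 ± 0.12, adjusted p = 6e-06), and its 0.29 ± 0.12 in set1htz1 was not called (adjusted p = 0.054), though it was in 6 of 25 alternatives, with adjusted p from 0.0099 to 0.29 over all of them. BAT2 fell 2.06-fold in set1htz1sir2 (-1.04 ± 0.11, adjusted p = 4.1e-07), rank 104 from the bottom of all genes tested, and 1.60-fold in set1htz1 (-0.68 ± 0.11, adjusted p = 6.9e-05). Taken on the same array, the log2 ratio of BAT1 exceeded that of BAT2 by 1.95 ± 0.44 in set1htz1sir2 (SD, n = 4, from 1.48 to 2.45), by 0.97 ± 0.33 in set1htz1 (from 0.55 to 1.35), by -0.08 ± 0.10 in H3K4A and by 0.17 ± 0.36 in set1. The ranges over arrays of set1htz1sir2, set1htz1 and the other mutants did not overlap in this difference. A dye effect common to both genes cancels in it, but one that differs between them does not. In set1htz1sir2 the mean with the mutant in Cy5 exceeded that in Cy3 by 0.765 for BAT1 and 0.055 for BAT2. In set1htz1 it did so by 0.50 for BAT1 and 0.08 for BAT2. The arrays measured RNA of whole cultures, so a lower BAT2 level in each cell and fewer cells expressing it cannot be told apart.

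**Figure D3:**
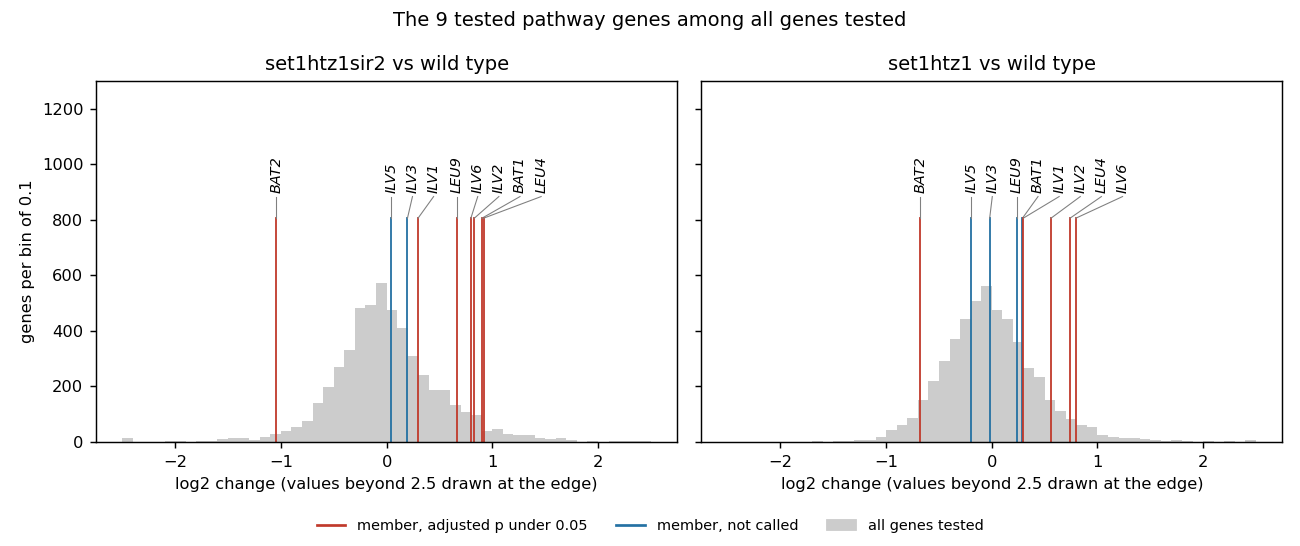
Number of genes (vertical axis) by log2 change from wild type (horizontal axis, bins of 0.1) over all 5147 genes tested in set1htz1sir2 and set1htz1, with lines at the 9 tested pathway genes, red where called. In set1htz1sir2, BAT2 stands at -1.04 on the low side, and LEU9, ILV6, ILV2, BAT1 and LEU4 stand together between 0.66 and 0.92 on the high side; in set1htz1 the uncalled BAT1 (0.29) lies beside the called ILV1 (0.30).

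Mutants were compared in 3 pairs, as differences between their ratios to wild type. The names of set1htz1sir2 and set1htz1 differ by SIR2. LYS2, a marker gene in many strains, also differed between them (-2.43), and the sources name no marker genes. Other differences between these strains cannot be told apart from that of SIR2. Between them, 1 pathway gene was called higher and 0 lower, against 7.25% higher and 5.4% lower among all genes tested. That gene was BAT1, with a difference of 0.61 ± 0.17 (adjusted p = 0.023), which was 0.75 within the arrays with the mutant in Cy5 and 0.48 within those in Cy3. It lost its call when any of set1htz1 replicates 1, 3 and 4 or set1htz1sir2 replicates 1, 2 and 3 was left out. LEU9 (0.43 ± 0.15, adjusted p = 0.067), LEU1 (0.39 ± 0.17, adjusted p = 0.17) and BAT2 (-0.37 ± 0.16, adjusted p = 0.13) were not called. ILV2 (0.27 ± 0.18) and LEU4 (0.18 ± 0.20) were not called either, with 95% intervals of -0.10 to 0.64 for ILV2 and -0.23 to 0.59 for LEU4. SIR2 itself was lower in set1htz1sir2 (-2.44 ± 0.28, SD) and not in set1htz1 (-0.10 ± 0.05, SD).

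The names of set1htz1 and set1 differ by HTZ1, with the same limit, as LYS2 differed between them by 2.42. Between them, 3 pathway genes were called higher and 1 lower, where 9.03% of all genes were higher and 10.3% lower. The raised genes were LEU4 (0.79 ± 0.20, adjusted p = 0.009), ILV6 (0.60 ± 0.12, adjusted p = 0.0027) and ILV2 (0.58 ± 0.18, adjusted p = 0.028), and BAT2 was the lowered one (-0.49 ± 0.16, adjusted p = 0.034). ILV2 lost this call in 8 of 25 alternatives, among them leaving out any of set1 replicates 1, 2 and 4 or set1htz1 replicates 2, 3 and 4. BAT2 lost it in 9 of 25, among them the replicate block and leaving out set1 replicate 1 or 3 or set1htz1 replicate 1, 2 or 3. The size of these differences went with the dye for all but ILV6. LEU4 differed by 0.26 on the arrays with the mutant in Cy5 and by 1.33 on those in Cy3, and ILV2 by 0.27 and 0.90 in the same order. BAT2 differed by -0.86 in Cy5 and -0.12 in Cy3. For ILV6 the values were 0.50 in Cy5 and 0.71 in Cy3, the smallest gap of the 4 genes. The sign was the same in both orientations for all 4 genes.

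Between H3K4A and set1, which both lack methylation at lysine 4 of histone H3 by their genotype, 0 of the 9 pathway genes were called, where 4.1% of all genes were higher and 3.4% lower in H3K4A. By limma, 386 of all genes were called at the adjusted threshold and 1152 had an unadjusted p under 0.05, and against wild type H3K4A had 825 genes under that unadjusted value. Of the pathway genes, LEU4 had the largest difference, 0.39 ± 0.20 (adjusted p = 0.26), with a 95% interval of -0.02 to 0.80. This LEU4 difference was 0.02 within the arrays with the mutant in Cy5 and 0.75 within those in Cy3. The intervals of the other 8 genes all included 0, among them BAT2 (-0.18 to 0.47) and ILV6 (-0.36 to 0.20).

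**Figure D4:**
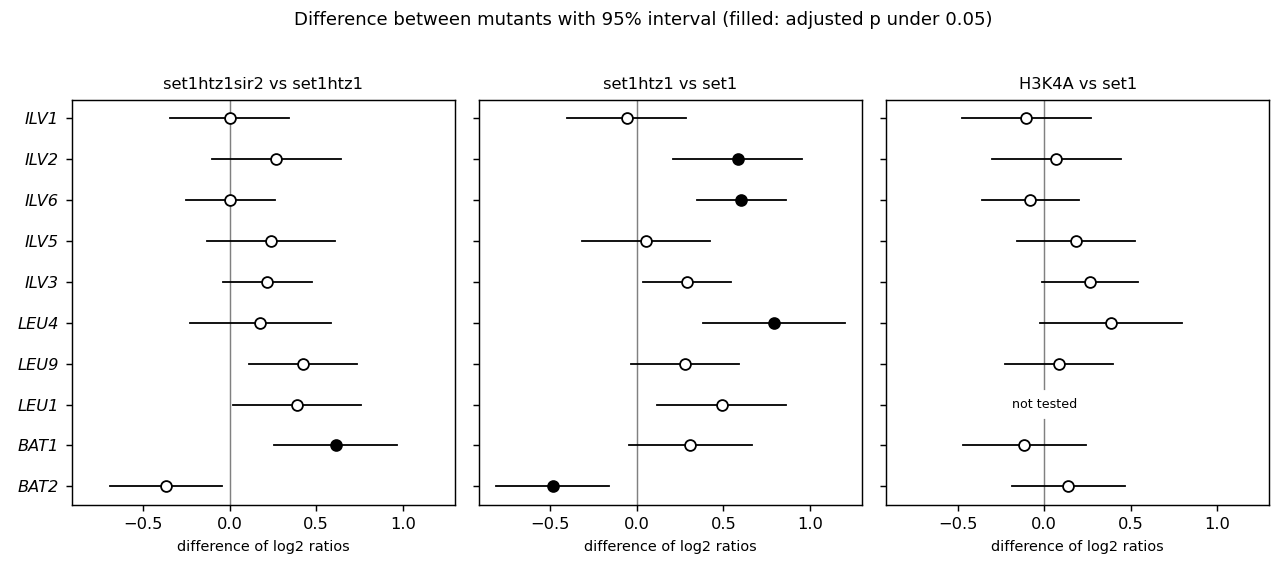
Difference of log2 ratios between mutants (horizontal axis) for the 10 genes, set1htz1sir2 against set1htz1, set1htz1 against set1, and H3K4A against set1, with 95% intervals; filled points passed an adjusted p of 0.05. BAT1 is the 1 filled point between set1htz1sir2 and set1htz1, LEU4, ILV2, ILV6 and BAT2 are filled between set1htz1 and set1, and LEU1 was not tested against H3K4A.

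A feature that the pathway genes shared, beside their function, was a dye effect. In all 9 tested genes the ratio was higher on arrays with the mutant in Cy5 than on those with it in Cy3, and the fitted dye term was called above 0 in 7 of them, against 11.5% of all genes tested. Its median was 0.41 over the pathway genes and 0.05 over all genes, both on the log2 scale. ILV5 had the largest term (0.97, adjusted p = 3.5e-05, rank 58 of all genes), followed by BAT1 (0.71, adjusted p = 0.00058) and ILV2 (0.62, adjusted p = 0.0026). ILV1 (0.33, adjusted p = 0.061) and ILV6 (0.09, adjusted p = 0.5) were the genes whose term was not called.

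Group by group, the mean with the mutant in Cy5 exceeded that with it in Cy3 for 10 of 10 pathway genes in set1htz1sir2 (median gap 0.46), 9 of 10 in set1htz1 (0.30), 9 of 9 in H3K4A (0.50) and 10 of 10 in set1 (0.77). The gap was widest in set1, where it ran from 0.21 for ILV6 (0.30 in Cy5 and 0.09 in Cy3) to 1.40 for ILV5 (0.45 in Cy5 and -0.95 in Cy3). Each group holds both orientations equally unless a value is missing, so the dye term is balanced in the group means, but the SD over set1 arrays carries it: it was 0.71 for BAT1 and 0.72 for LEU4. In set1htz1sir2 and set1htz1 all pathway genes except ILV5 and ILV3 kept the sign of their mean in both orientations.

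**Figure D5:**
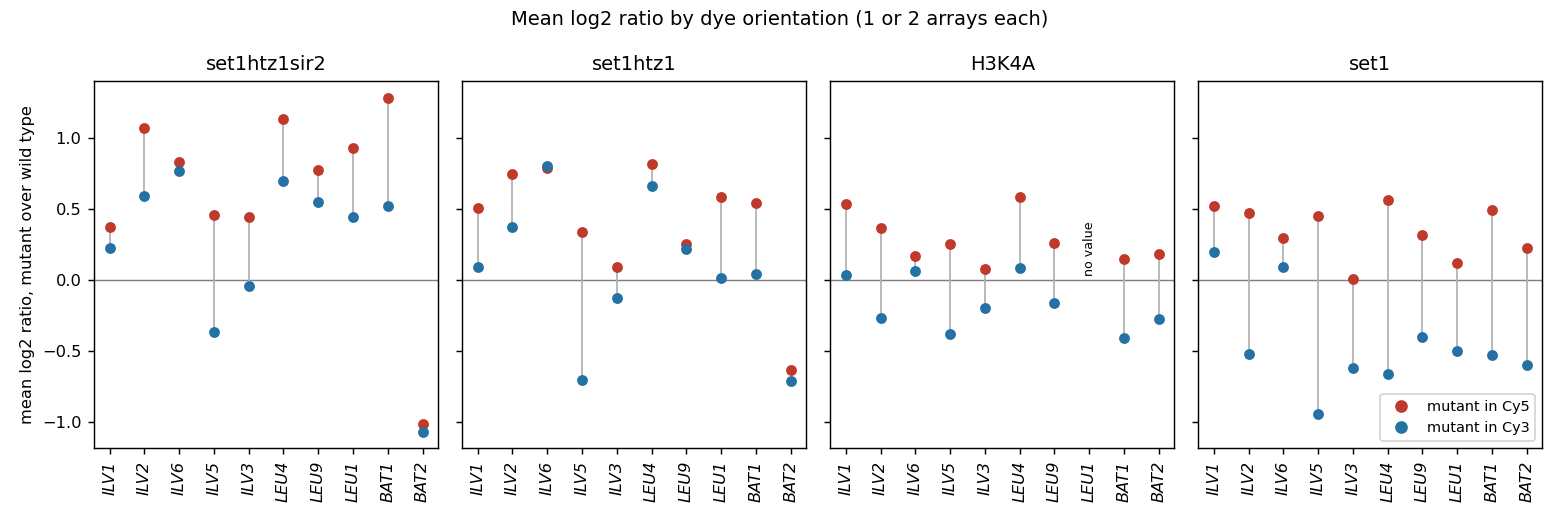
Mean log2 ratio of mutant over wild type (vertical axis) for each gene in set1htz1sir2, set1htz1, H3K4A and set1, split by the dye that carried the mutant (1 or 2 arrays per point), with a grey line joining both. The Cy5 point lies above the Cy3 point for every gene shown except ILV6 in set1htz1, and the gap in set1 reaches 1.40 for ILV5.

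The regulators of the pathway did not move with its enzymes in one direction. LEU3 was called lower in set1htz1sir2 (-0.32, adjusted p = 0.032) and set1htz1 (-0.36, adjusted p = 0.019), and was -0.40 in H3K4A (adjusted p = 0.14) and -0.24 in set1 (adjusted p = 0.17). GCN4, whose protein is controlled mainly at translation, had no H3K4A value. In tests over the genes measured in the groups compared it rose in set1htz1sir2 (0.36, adjusted p = 0.013) and set1htz1 (0.71, adjusted p = 0.00011), was 0.14 in set1 (adjusted p = 0.43), and was higher in set1htz1 than in set1 (0.57, adjusted p = 0.019). GLN3, an activator of nitrogen-regulated genes with no set1htz1sir2 value, was not called in set1htz1 (-0.25, adjusted p = 0.083), H3K4A (-0.02, adjusted p = 0.96) or set1 (0.13, adjusted p = 0.38).

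Counts in this and the following lists stand beside the shares of all genes tested. These were 24.1% higher and 26.3% lower in set1htz1sir2, and 21.2% higher and 26.3% lower in set1htz1. In H3K4A they were 3.59% and 0.602%, and in set1 9.05% and 9.79%. No list was tested as a set. Of 4 genes known as Leu3 targets or as carriers that work with the pathway, 1 rose and 1 fell in set1htz1sir2. In set1htz1 1 rose, and 0 were called in H3K4A or set1. OAC1, the mitochondrial carrier that also exports isopropylmalate, rose in set1htz1sir2 (0.69, adjusted p = 0.00014), where TMT1, a methyltransferase that acts on isopropylmalate, fell (-0.38, adjusted p = 0.0044). OAC1 was 0.06 in set1htz1, and the difference of 0.63 between set1htz1sir2 and set1htz1 was called. GDH1, the glutamate dehydrogenase that supplies amino groups, rose in set1htz1 (0.42, adjusted p = 0.012).

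Uptake genes were called in both directions, as genes at large were. Of 4 tested permeases that carry branched-chain amino acids, 2 fell in set1htz1sir2, 1 rose and 1 fell in set1htz1, and 1 rose in set1. GAP1, the general amino acid permease, fell in set1htz1sir2 (-0.55, adjusted p = 0.00013), but rose in set1htz1 (0.71, adjusted p = 5.6e-05) and set1 (0.36, adjusted p = 0.015). The difference of -1.26 in GAP1 between set1htz1sir2 and set1htz1 was called. GNP1 fell in set1htz1sir2 (-0.60) and BAP3 in set1htz1 (-0.44). TAT1, which was not measured in set1htz1sir2, fell in set1htz1 (-0.83, adjusted p = 4.7e-05) and set1 (-0.66, adjusted p = 0.0012) in tests over the genes measured in those groups.

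Of the 6 genes that supply threonine or compete for it, 1 rose and 2 fell in set1htz1sir2, 1 fell in set1htz1, 1 rose in H3K4A and 0 were called in set1. The largest changes were those of CHA1, the catabolic serine and threonine deaminase that catalyses the same reaction as Ilv1. CHA1 was -1.60 in set1htz1sir2 (adjusted p = 4.6e-11), -1.22 in set1htz1 (adjusted p = 3.1e-09), 1.04 in H3K4A (adjusted p = 4.3e-07) and 0.02 in set1 (adjusted p = 0.89). Thus CHA1 was called in opposite directions in H3K4A and in the mutants without Htz1, unlike ILV1. HOM3, aspartate kinase, rose in set1htz1sir2 (0.53) and HOM2, the next enzyme, fell (-0.69).

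Genes that use the keto acids of the pathway were called in both directions. So were genes at large, with 24.1% higher and 26.3% lower in set1htz1sir2, and 21.2% higher and 26.3% lower in set1htz1. Of 5 tested genes of keto acid breakdown to fusel alcohols, 2 fell in set1htz1sir2 and 3 rose and 1 fell in set1htz1. ARO10, a decarboxylase of these keto acids, fell in set1htz1sir2 (-0.89, adjusted p = 0.00026), and PDC6 (0.54), PDC5 (0.35) and SFA1 (0.32) rose in set1htz1. ADH1, alcohol dehydrogenase, had no H3K4A value and fell in set1htz1sir2 (-0.73, adjusted p = 0.0002), set1htz1 (-0.43, adjusted p = 0.01) and set1 (-0.42, adjusted p = 0.03) in tests over the genes measured in the groups compared, where PDC1 was not called. THI3, a regulator of thiamine genes once proposed as a keto acid decarboxylase, fell in both (-0.23 in set1htz1sir2 and -0.31 in set1htz1). Of 4 genes of pantothenate synthesis, which starts from ketoisovalerate, PAN6 rose in set1htz1sir2 (0.46) and set1htz1 (0.28), and FMS1 fell in both (-0.73 in set1htz1sir2 and -0.25 in set1htz1).

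Other amino acid pathways under Gcn4 were counted for comparison. Among all genes tested, 24.1% were called higher in set1htz1sir2, 21.2% in set1htz1, 3.59% in H3K4A and 9.05% in set1. Of 8 tested arginine genes, 3 rose in set1htz1sir2, 5 rose and 1 fell in set1htz1, 1 rose in H3K4A, and 6 rose in set1, where the branched-chain genes had 1 higher and 1 lower. Of 7 histidine genes, 3 rose and 1 fell in set1htz1sir2, 2 rose in set1htz1, 0 were called in H3K4A and 5 rose in set1. Of 8 lysine genes, 1 rose and 1 fell in set1htz1sir2, 3 rose in set1htz1, 0 were called in H3K4A and 1 fell in set1. The median log2 change of the arginine genes was 0.16 in set1htz1sir2, 0.42 in set1htz1, 0.10 in H3K4A and 0.68 in set1, so its highest value was in the mutant in which the branched-chain genes had a median of -0.04. ARG1, argininosuccinate synthetase, was 0.02 in set1htz1sir2, 0.48 in set1htz1, 0.20 in H3K4A and 1.87 in set1, and HIS4 was -0.46 in set1htz1sir2, 0.06 in set1htz1, -0.09 in H3K4A and 0.81 in set1. Some members of these lists, HIS3 and LYS2 among them, are marker genes in many strains: LYS2 was 2.65 in set1htz1 and between -0.12 and 0.22 in the other mutants. HIS3 was 1.61 in set1htz1sir2, 1.25 in set1htz1 and 0.92 in set1, each called higher, and -0.02 in H3K4A. The counts of risen histidine genes in set1htz1sir2, set1htz1 and set1 therefore each include HIS3.

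The genes whose profile over the 16 arrays was most like that of part of the pathway were found by Pearson correlation with the mean of the 5 pathway genes measured on every array, after the dye term was taken off. These 5 were ILV2, LEU4, LEU9, BAT1 and BAT2, so the mean includes BAT2, which moved against the others, and leaves out ILV6. Among 3660 other genes measured on all arrays, these were SUR1 (r = 0.951), DAS1 (0.906), FUM1 (0.904), PAB1 (0.879) and SEC14 (0.874). The points share arrays, groups and wild-type cultures, so these values describe likeness only. SUR1, which acts in sphingolipid synthesis, had mean log2 ratios of 1.03 in set1htz1sir2, 0.32 in set1htz1, 0.18 in H3K4A and -0.19 in set1. FUM1, fumarase, had 0.81 in set1htz1sir2, 0.80 in set1htz1, 0.28 in H3K4A and 0.13 in set1.

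Transcripts of the deleted genes were reduced in the mutants named for them. SET1 averaged -2.31 ± 0.22 in set1htz1sir2, -2.34 ± 0.45 in set1htz1, -0.14 ± 0.15 in H3K4A and -2.67 ± 0.42 in set1 (SD, n = 4 each). HTZ1 averaged -2.94 ± 0.26 in set1htz1 and had no value in set1htz1sir2, so that the arrays of set1htz1sir2 give no check of that deletion. Each array gave 5385 to 5802 measured entries and a median log2 ratio from -0.04 to 0.03, and precision is limited by the number of arrays. The SD of the log2 ratios on an array was 0.55 to 0.64 in set1htz1sir2 and 0.49 to 0.56 in set1htz1. It was 0.25 to 0.43 in H3K4A and 0.41 to 0.53 in set1. Whether the narrower spread of H3K4A is technical was not tested, and it limits comparisons of its changes with those of other mutants.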

How the data were processed

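Values are log2 ratios of the mutant to its wild type, which the authors obtained from GenePix 3.0 scans after dropping dim spots and spots with a regression R2 below 0.75 and scaling to total signal, per the deposited description. Base 2 was checked on the values: 164 low values written to 2 decimals on the set1, set1htz1 and set1htz1sir2 arrays were all whole hundredths of a ratio (100%), and the 145 to 215 distinct ratios of each H3K4A array lay whole steps apart under base 2 (100%, within 0.05 of a step). Per the labels, Cy5 marked the mutant on replicates 1 and 3 of every group and Cy3 on replicates 2 and 4. The sources used here give neither genome build nor probes, and no promoter or protein sequence was used here.

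The 6282 entries, 296 of them with a name prefix z of unstated meaning, were averaged to 6074 genes, and 5539 were named from a RefSeq table of assembly R64. limma 3.58.1 in R 4.3.3 fitted the deposited ratios of 16 arrays at once, with 4 group means and 1 shared dye term. Genes with a value on at least 3 of 4 arrays in every group were tested. For genes missing from a group, such as LEU1, the filter was applied to the groups compared alone, a choice made after seeing the data. Missing values were left out and none was imputed. Tables used pandas 2.3.3 and numpy 2.4.6 in Python 3.11.15, and plots matplotlib 3.10.9. The fit was tested on simulated data.

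Alternatives were no dye term, a dye term per group, a replicate block, median centring and quantile normalization. Further ones were other filters, only the arrays compared, leaving out the entries with prefix z, and leaving out each array. All 10 pathway genes are named. Of each related list, those called in any comparison with wild type could be named, largest change first, up to 6. The pathway genes and the lists were chosen with earlier results of these data known.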

Additional observations from a re-analysis of the deposited data

How the results depend on the processing

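Of 20 called results of single pathway genes, LEU1 included, 12 kept their call under all alternatives run: LEU4, ILV6, ILV2 and BAT2 in set1htz1sir2 and set1htz1, BAT1, LEU9 and LEU1 in set1htz1sir2, and ILV6 between set1htz1 and set1. None reversed. ILV1 in its 3 mutants, ILV3 in set1, BAT1 between set1htz1sir2 and set1htz1, and LEU4, ILV2 and BAT2 between set1htz1 and set1 lost their call under at least 1 alternative; the cause was not tested. Calls were gained in set1htz1 by BAT1 (6 alternatives), LEU9 (3) and LEU1 (4), in set1htz1sir2 by ILV3 (3), between set1htz1sir2 and set1htz1 by LEU9 (4), BAT2 (2) and LEU1 (1), and between set1htz1 and set1 by LEU1 (2). The count in set1htz1, 5, was 7 with a dye term per group or each array centred on its median. Without a dye term the number of pathway genes called was 0 in set1 (2 with it), 0 between set1htz1sir2 and set1htz1 (1 with it) and 1 between set1htz1 and set1 (4 with it). A dye term per group gave 3 between set1htz1sir2 and set1htz1. Quantile normalization gave 1 in H3K4A, LEU4, with adjusted p = 0.034, 0 between set1htz1sir2 and set1htz1, and 2 between set1htz1 and set1, and fitting the arrays compared alone gave 4 between set1htz1sir2 and set1htz1. With 1 array left out, the count ran from 6 to 7 in set1htz1sir2, 4 to 6 in set1htz1, 0 to 2 in set1, 0 to 2 between set1htz1sir2 and set1htz1, 2 to 4 between set1htz1 and set1, and stayed 0 in H3K4A and between H3K4A and set1. It was 2 between set1htz1sir2 and set1htz1 without H3K4A replicate 1.

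Over all genes, H3K4A against wild type had 216 calls (185 higher and 31 lower), 136 without a dye term, 786 after quantile normalization (458 higher and 328 lower), 41 from its own arrays alone and 129 to 249 with 1 array left out. The other counts over all genes with 1 array left out were 2079 to 2758 in set1htz1sir2 (2596 with all), 1928 to 2627 in set1htz1 (2445), 595 to 1148 in set1 (970), 344 to 854 between set1htz1sir2 and set1htz1 (651), 658 to 1172 between set1htz1 and set1 (995) and 246 to 397 between H3K4A and set1 (386). Between set1htz1sir2 and set1htz1 it was 408 without a dye term, 243 after quantile normalization and 1319 from the arrays compared alone, between set1htz1 and set1 589 after quantile normalization, and between H3K4A and set1 212 without a dye term and 103 from the arrays compared alone. With the array number as a replicate block, 7 pathway genes were called in set1htz1sir2, 5 in set1htz1, 0 in H3K4A, 2 in set1, 1 between set1htz1sir2 and set1htz1, 3 between set1htz1 and set1, where BAT2 was lost, and 0 between H3K4A and set1. Of 24 pairs of arrays with the same number, 21 correlated over 0.1 with group means taken off but 4 with the dye also taken off. The shared dye term was fitted on these same arrays, which pushes the second set of correlations down (from -0.53 to 0.29). These counts therefore do not decide whether equal numbers are pairs. The main fit did not treat them as pairs.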
